A study of Mus musculus with 12 samples.

Results

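The genes described here mark the non-neural cells that a piece of newborn mouse thalamus carries with its neurons and glia. They are 15 markers of endothelial cells, 5 of mural cells, 9 of meningeal fibroblasts and 18 of microglia and macrophages. These 47 genes, of 55359 in the count files, were chosen by symbol as cell markers, with earlier results of these data known. The further lists below were also chosen with those results known, so their shares beside those of all genes are descriptions only. Of the 47 genes, 46 passed the count filter and were tested, and Pf4 did not pass.

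RNA was sequenced in bulk from the ventroposterior medial nucleus of the thalamus, the relay of touch from the face, at postnatal day 0. The embWPC ALBSF group is the upper lip territory (ALBSF) of pups with the treatment named embWPC, which the labels do not spell out. The Ctrl PMBSF group is the whisker pad territory (PMBSF) of control pups, and the Ctrl ALBSF group is the upper lip territory of control pups. Each group has 4 libraries, each made from microdissected tissue of 5 pooled brains, so p-values measure the spread between pools. No transgene, strain or sex is named in the labels.

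Brain capillaries are tubes of endothelial cells joined by tight junctions, wrapped by pericytes and, on larger vessels, by smooth muscle, which together are called mural cells. The meninges cover the brain with layers of fibroblasts that make collagen and other matrix, and they follow larger vessels into the tissue. Microglia are the macrophages of the brain tissue itself, whereas border macrophages sit in the meninges and around vessels. A dissected piece holds each of them in proportion to how much tissue, vessel and membrane it contains. In bulk RNA, fewer cells of a type and less RNA per cell cannot be told apart.

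The 4 sets differed in how they were spread over the libraries. The mean of log2 CPM (counts per library total after TMM scaling, with a prior count of 2) over the meningeal fibroblast genes was 0.70, 0.75, 0.56 and 0.22 in embWPC ALBSF libraries 1 to 4. It was 1.12, 3.55, 2.30 and 2.25 in Ctrl PMBSF libraries 1 to 4, and 1.03, 1.56, 1.26 and 1.41 in Ctrl ALBSF libraries 1 to 4. All 4 embWPC ALBSF libraries lay below all 8 control libraries, and Ctrl PMBSF 2 stood above the rest. The microglia and macrophage genes were at 1.18 to 1.58 in embWPC ALBSF, 1.27 to 2.48 in Ctrl PMBSF and 1.36 to 2.14 in Ctrl ALBSF, so these groups overlapped. The endothelial genes were at 3.46 to 3.72, 3.13 to 3.81 and 3.25 to 3.73 in the same groups. The mural genes were at 2.55 to 2.83, 1.93 to 2.94 and 1.96 to 2.85.

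**Figure D1:**
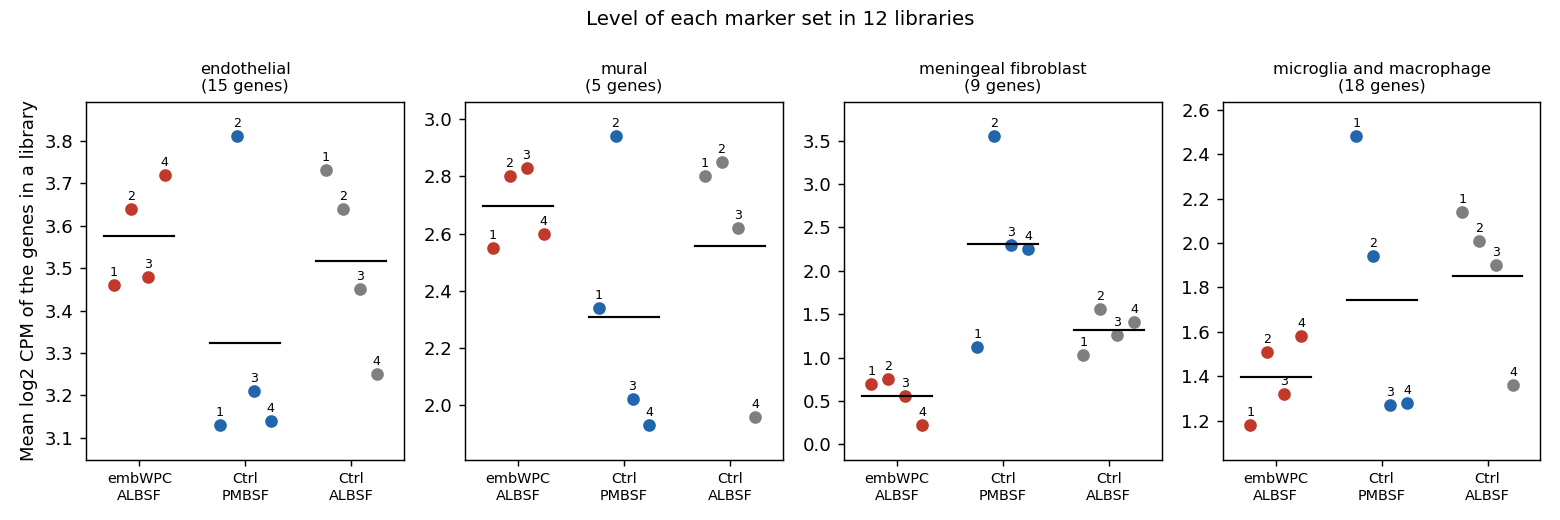
Mean log2 CPM of each marker set (y axis) in the 12 libraries, by group (x axis); points are libraries with their number and bars are group means. Meningeal fibroblast genes were at 0.22 to 0.75 in embWPC ALBSF, below every control library, and at 3.55 in Ctrl PMBSF 2; the y axes differ between panels and do not start at 0.

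Counts were tested with edgeR's quasi-likelihood test, and a gene was called at a Benjamini-Hochberg adjusted p under 0.05 over the 17501 genes tested. In Ctrl PMBSF against Ctrl ALBSF, 0 of the 46 genes were called, where 1.62% of all genes were. At an unadjusted p under 0.05 the count was 11, of which 7 had a higher and 4 a lower value in Ctrl PMBSF, with a background of 11.8% of all genes. DESeq2 called 1 of the 46 (Islr), where it called 3.01% of all genes, and limma-voom with quality weights called 0, where it called 2.63%. In embWPC ALBSF against Ctrl ALBSF, 0 were called, where 0.0629% of all genes were. There 4 had an unadjusted p under 0.05, against 9.22% of all genes. DESeq2 called 2 (Aif1 and Ptgds), where it called 1.1% of all genes, and limma-voom called 0, where it called 0.446%. In embWPC ALBSF against Ctrl PMBSF, 0 were called, where 0.00571% of all genes were. In that comparison 16 had an unadjusted p under 0.05, 4 with a higher and 12 with a lower value in embWPC ALBSF, against 9.47% of all genes. DESeq2 called 5 (Col1a2, Col3a1, Dcn, Islr and Ptgds), all lower in embWPC ALBSF, where it called 0.423% of all genes, and limma-voom called 0, where it called 0.00571%. The last comparison sets treatment and territory apart together, and it shares its libraries with the other two. Where values are given for the 3 comparisons without names, they keep this order: Ctrl PMBSF against Ctrl ALBSF, embWPC ALBSF against Ctrl ALBSF, and embWPC ALBSF against Ctrl PMBSF.

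The control libraries also deviated together by their number, so a fit of the 8 control libraries with the number as a block was set beside the Ctrl PMBSF against Ctrl ALBSF result. It called 5 of the 45 genes that passed its own filter, where it called 5.04% of all genes. These were Islr and Lum, higher in Ctrl PMBSF, and Rgs5, Ctss and Slc16a1, lower in Ctrl PMBSF.

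**Figure D2:**
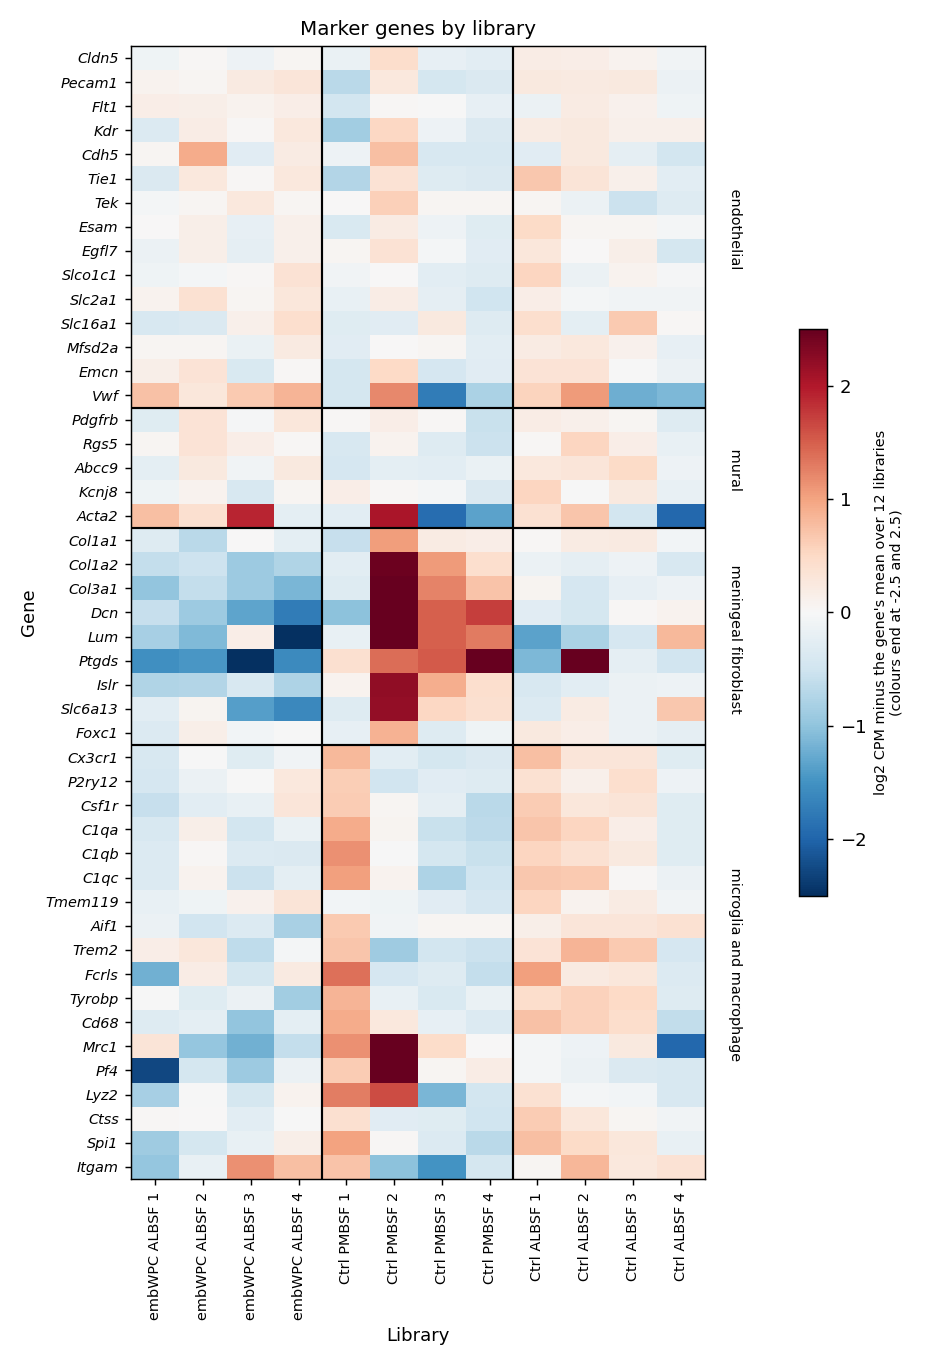
Each row is a gene and each column a library; colour is log2 CPM minus the gene's mean over the 12 libraries, with colours ending at -2.5 and 2.5. Of the 9 meningeal fibroblast genes 8 were highest in Ctrl PMBSF 2, as were Pf4 and Mrc1, while Ptgds was highest in Ctrl ALBSF 2; 11 of the 18 microglia and macrophage genes were highest in Ctrl PMBSF 1.

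The meningeal fibroblast genes gave the widest differences between groups. The group mean was lowest in embWPC ALBSF and highest in Ctrl PMBSF for all 9 of them. The median log2 difference of the set was 1.44 in Ctrl PMBSF against Ctrl ALBSF (9 of 9 with a higher value), -0.76 in embWPC ALBSF against Ctrl ALBSF (0 of 9) and -1.99 in embWPC ALBSF against Ctrl PMBSF (0 of 9). Over all genes tested the medians were 0.00, -0.01 and -0.02. Of the 9 genes, 8 had their highest value in Ctrl PMBSF 2. Without Ctrl PMBSF 2, the median in Ctrl PMBSF against Ctrl ALBSF was 0.74, with 7 of 9 higher, and Col1a1 and Foxc1 lower. The median in embWPC ALBSF against Ctrl PMBSF was then -1.24, with 8 of 9 lower. The median in embWPC ALBSF against Ctrl ALBSF ran from -0.78 to -0.44 when 1 library was left out, and was -0.44 without embWPC ALBSF 4. Without Ctrl PMBSF 1, edgeR called Col1a2, Col3a1, Dcn and Islr in Ctrl PMBSF against Ctrl ALBSF, with log2 differences of 1.80, 1.97, 2.37 and 1.67 and adjusted p of 0.0219, 0.0147, 0.00375 and 0.0389. Also without Ctrl PMBSF 1, for embWPC ALBSF against Ctrl PMBSF it called Col3a1 and Dcn, with -2.73 and -3.37 and adjusted p of 0.0261 and 0.00258. Ctrl PMBSF 1 had the lowest level of its group for this set, and leaving it out widened the medians of these comparisons to 1.67 and -2.27. With all 12 libraries, edgeR called 0 of the 9 genes in each comparison. The numbers of all genes called on leaving out 1 library are given at the end as ranges, without a share for the fit without Ctrl PMBSF 1.

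Col3a1, the chain of type III collagen, lies on chromosome 1 from 45350698 to 45395840 on the plus strand (GRCm39). It had 1.78, 2.36, 1.89 and 1.6 CPM in embWPC ALBSF libraries 1 to 4, 2.86, 23.7, 8.54 and 5.9 CPM in Ctrl PMBSF and 3.77, 2.67, 3.11 and 3.31 CPM in Ctrl ALBSF. Every embWPC ALBSF library was below every control library, and Ctrl PMBSF 1 lay within the Ctrl ALBSF range. The log2 differences were 1.67 ± 0.46 (SE) for Ctrl PMBSF against Ctrl ALBSF, -0.76 ± 0.48 for embWPC ALBSF against Ctrl ALBSF and -2.43 ± 0.47 for embWPC ALBSF against Ctrl PMBSF. The edgeR adjusted p was 0.101, 0.669 and 0.24 in that order.

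Col1a2, which encodes a chain of type I collagen, showed the same order of groups. Its values were 2.55, 2.68, 2.05 and 2.28 CPM in embWPC ALBSF, 3.21, 21.4, 8.23 and 5.18 CPM in Ctrl PMBSF and 3.51, 3.31, 3.56 and 2.91 CPM in Ctrl ALBSF. The partner chain Col1a1 varied less, with group means of 3.78 ± 0.737, 5.83 ± 2.74 and 4.98 ± 0.467 CPM (SD, n = 4 each). Col1a2 had log2 differences of 1.51 ± 0.42, -0.47 ± 0.44 and -1.99 ± 0.43 (SE) in the 3 comparisons, and Col1a1 of 0.22 ± 0.26, -0.40 ± 0.26 and -0.62 ± 0.26. The edgeR adjusted p of Col1a2 was 0.11, 0.768 and 0.24.

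The promoters of Col1a2 and Col3a1 are shown because these collagen genes had parallel values over the libraries. The windows are RefSeq sequence of GRCm38.p6, an older build than that of the counts, from 250 bases before to 50 after the start of the gene, 5′ to 3′ on the strand of the gene. Capitals mark CCAAT, or ATTGG where CCAAT is on the other strand, and TATAAA.
Col1a2, chr6:4505368-4505667, plus strand: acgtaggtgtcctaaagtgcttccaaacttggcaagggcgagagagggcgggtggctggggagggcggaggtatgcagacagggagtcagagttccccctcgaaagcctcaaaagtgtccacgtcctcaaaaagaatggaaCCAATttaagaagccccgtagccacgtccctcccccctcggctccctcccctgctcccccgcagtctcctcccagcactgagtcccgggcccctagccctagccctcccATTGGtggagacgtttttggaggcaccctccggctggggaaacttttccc
Col3a1, chr1:45311288-45311587, plus strand: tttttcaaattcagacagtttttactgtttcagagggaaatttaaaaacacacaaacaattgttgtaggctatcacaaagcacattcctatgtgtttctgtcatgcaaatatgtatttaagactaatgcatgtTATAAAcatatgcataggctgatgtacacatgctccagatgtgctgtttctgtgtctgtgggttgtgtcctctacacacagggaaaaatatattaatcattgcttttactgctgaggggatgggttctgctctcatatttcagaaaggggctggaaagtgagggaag
The Col1a2 window holds CCAAT on both strands and the Col3a1 window holds TATAAA. Over 32851 promoter windows, counted on both strands, 37.4% hold CCAAT and 13.6% hold TATAAA. A match describes these letters only.

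Dcn and Lum encode the small proteoglycans decorin and lumican, which bind collagen fibrils. Dcn was at 1.21, 0.937, 0.695 and 0.498 CPM in embWPC ALBSF, 0.864, 14.5, 5.26 and 6.19 CPM in Ctrl PMBSF and 1.49, 1.34, 1.87 and 1.95 CPM in Ctrl ALBSF. The Ctrl PMBSF libraries 2 to 4 were above all others, whereas Ctrl PMBSF 1 lay below the Ctrl ALBSF range and within that of embWPC ALBSF. Lum was at 0.168, 0.129, 0.397 and 0 CPM in embWPC ALBSF, 0.297, 4.94, 1.09 and 0.942 CPM in Ctrl PMBSF and 0.0992, 0.176, 0.242 and 0.661 CPM in Ctrl ALBSF. A count of 0, as in embWPC ALBSF 4, allows up to 3 counts, or 0.0786 CPM, as counting error only. The log2 differences of Dcn were 2.01 ± 0.55, -1.01 ± 0.61 and -3.01 ± 0.59 (SE) in the 3 comparisons, with edgeR adjusted p of 0.101, 0.648 and 0.24. For Lum in Ctrl PMBSF against Ctrl ALBSF, the difference was 2.60 ± 0.83 (SE, adjusted p 0.176), and the fit with the control pairs as a block gave 2.28 ± 0.56 with an adjusted p of 0.0405 (edgeR).

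Islr encodes a secreted leucine-rich-repeat protein of mesenchymal cells. Its levels were 0.637, 0.646, 0.827 and 0.629 CPM in embWPC ALBSF, 1.19, 5.4, 2.16 and 1.51 CPM in Ctrl PMBSF and 0.827, 0.914, 1 and 1.02 CPM in Ctrl ALBSF. All 4 Ctrl PMBSF libraries were above all other libraries. It was the only one of the 46 genes whose Ctrl PMBSF libraries all lay above all Ctrl ALBSF libraries, where 4.66% of all genes did so. The log2 difference between them was 1.44 ± 0.39 (SE, edgeR adjusted p 0.0997), and with the control pairs as a block it was 1.24 ± 0.32 with an adjusted p of 0.0478. Slc6a13, a GABA and taurine transporter of meningeal cells, had 2.42, 3.07, 1.09 and 0.917 CPM in embWPC ALBSF, 2.32, 13.5, 4.2 and 3.86 CPM in Ctrl PMBSF and 2.28, 3.38, 2.63 and 4.66 CPM in Ctrl ALBSF. Without Ctrl PMBSF 2 its difference between Ctrl PMBSF and Ctrl ALBSF was 0.09, against 0.88 ± 0.48 (SE) with it.

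Ptgds makes prostaglandin D2 and is expressed in meningeal cells and choroid plexus, and in oligodendrocytes later in life. The gene lies on chromosome 2 from 25352795 to 25362601 on the minus strand (GRCm39). It had 4.09, 4.36, 1.79 and 3.93 CPM in embWPC ALBSF, 15.9, 31.6, 35 and 78.3 CPM in Ctrl PMBSF and 5.46, 102, 10.2 and 8.63 CPM in Ctrl ALBSF. Every embWPC ALBSF library was below every control library, and Ctrl ALBSF 2 stood far above the other Ctrl ALBSF libraries. Ttr, the most abundant transcript of choroid plexus, moved with it in that library: it had 98.7 CPM in Ctrl ALBSF 2, 22 CPM in Ctrl PMBSF 2 and 2.48 to 8.52 CPM in the other 10 libraries. Of the 8 choroid plexus markers listed, 5 passed the filter, and Kl was at 0 to 0.184 CPM. The summed level of all 8 was 11.6 to 17.3 CPM in embWPC ALBSF, 14.1 to 32.7 CPM in Ctrl PMBSF and 12.6 to 112 CPM in Ctrl ALBSF. In Ctrl PMBSF 4, where Ptgds was at 78.3 CPM, this sum was 14.1 CPM, the lowest of its group. The part of choroid plexus RNA in the Ptgds values was not tested.

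Ptgds had a log2 difference of -3.15 ± 0.84 (SE) in embWPC ALBSF against Ctrl ALBSF, with an edgeR adjusted p of 0.199. DESeq2 gave an adjusted p of 0.0367, and the adjusted p ran from 0.0015 to 0.532 over the 15 alternatives. Without Ctrl ALBSF 2 the difference was -1.19. In Ctrl PMBSF against Ctrl ALBSF it was 0.35 ± 0.73 (SE), but 2.31 without Ctrl ALBSF 2, which edgeR then called with an adjusted p of 0.0272. For embWPC ALBSF against Ctrl PMBSF it was -3.50 ± 0.85 (SE, edgeR adjusted p 0.27). Ptgds made up 11.2 to 24% of the summed CPM of the 9 genes in embWPC ALBSF, 24.4 to 71.4% in Ctrl PMBSF and 21.6 to 83.6% in Ctrl ALBSF. The other 8 genes summed to 14.5, 15.6, 14.1 and 12.4 CPM in embWPC ALBSF, 16.1, 98, 36.9 and 31.3 CPM in Ctrl PMBSF and 19.8, 20.1, 20.2 and 21.2 CPM in Ctrl ALBSF. Also without Ptgds, each embWPC ALBSF library was below each control library, by a small margin from Ctrl PMBSF 1.

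Foxc1, a forkhead factor of meningeal fibroblasts and pericytes, did not share the range of the matrix genes. It had group means of 2.52 ± 0.358 CPM in embWPC ALBSF, 2.92 ± 1.3 CPM in Ctrl PMBSF and 2.67 ± 0.429 CPM in Ctrl ALBSF (SD, n = 4 each). In embWPC ALBSF against Ctrl ALBSF, 4 of the 9 genes had groups that did not overlap, all lower (Col1a2, Col3a1, Dcn and Ptgds). Of all genes tested, 2.7% were lower and 3.04% higher without overlap. In embWPC ALBSF against Ctrl PMBSF they were Col1a2, Col3a1, Islr and Ptgds, again 4, where 2.38% of all genes were lower and 2.35% higher without overlap.

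**Figure D3:**
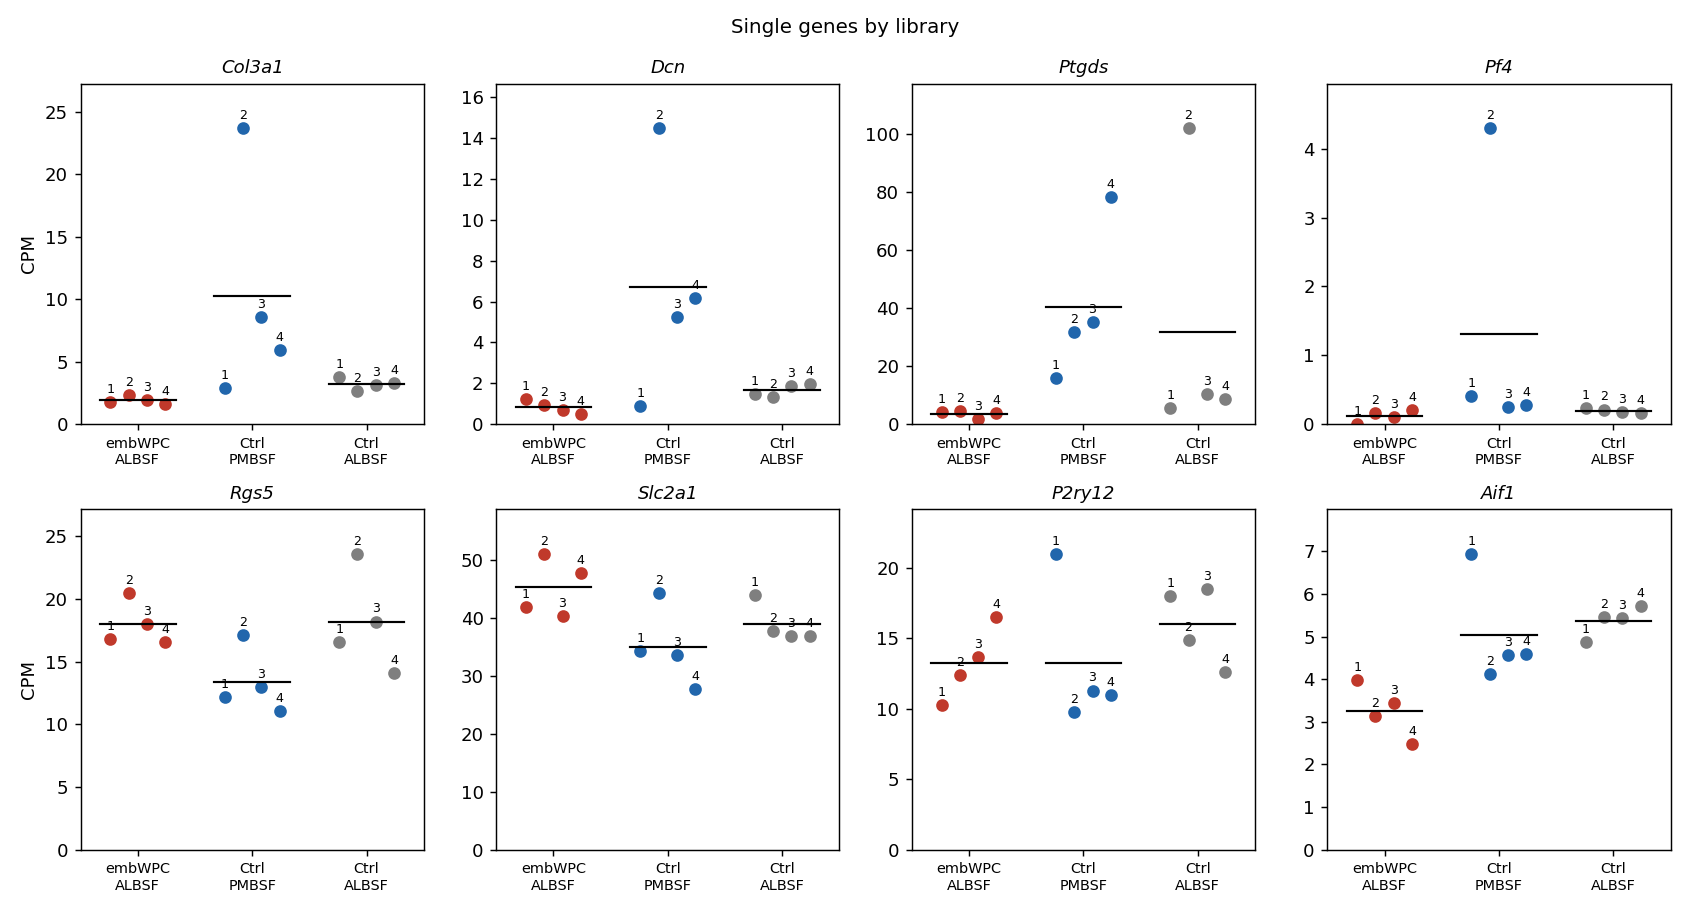
CPM (y axes, each from 0) of 8 genes in the 12 libraries by group (x axes); points are libraries with their number and bars are group means. Col3a1 was at 1.6 to 2.36 CPM in embWPC ALBSF and 23.7 CPM in Ctrl PMBSF 2, Ptgds at 102 CPM in Ctrl ALBSF 2, and Pf4 at 4.3 CPM in Ctrl PMBSF 2.

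Mrc1, Pf4 and Lyz2 mark border macrophages more than microglia, and like most of the meningeal genes they were highest in Ctrl PMBSF 2. Pf4, a platelet and macrophage chemokine, had 140 counts in Ctrl PMBSF 2 and 0 to 15 counts in each of the other 11 libraries. That is 0, 0.162, 0.0993 and 0.21 CPM in embWPC ALBSF, 0.405, 4.3, 0.252 and 0.283 CPM in Ctrl PMBSF and 0.232, 0.211, 0.173 and 0.165 CPM in Ctrl ALBSF. Mrc1, the macrophage mannose receptor, had 0.403, 0.129, 0.0993 and 0.183 CPM in embWPC ALBSF, 0.756, 2.46, 0.448 and 0.314 CPM in Ctrl PMBSF and 0.298, 0.281, 0.38 and 0.0331 CPM in Ctrl ALBSF. Its log2 difference between Ctrl PMBSF and Ctrl ALBSF was 1.99 ± 0.68 (SE, edgeR adjusted p 0.211), and 1.03 without Ctrl PMBSF 2. Lyz2, a lysozyme of macrophages, was at 1.51, 2.68, 1.99 and 2.88 CPM in embWPC ALBSF, 6.7, 8.5, 1.2 and 1.95 CPM in Ctrl PMBSF and 3.57, 2.64, 2.59 and 2.05 CPM in Ctrl ALBSF. It was high in both Ctrl PMBSF 1 and Ctrl PMBSF 2. Lyve1, another border macrophage marker that was not in the set and did not pass the filter, had 5.68 CPM in Ctrl PMBSF 2 and 0 to 0.336 CPM elsewhere. Of the 8 border macrophage genes listed with Lyve1 among them, 4 were tested and 0 called. At an unadjusted p under 0.05 they numbered 1, 0 and 0 in the 3 comparisons. These are 25%, 0% and 0% of those tested, beside 11.8%, 9.22% and 9.47% of all genes.

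The levels of the endothelial genes overlapped between the groups, and none of the 15 was called in the edgeR fit of 12 libraries. Their summed CPM was 302 ± 29.2 in embWPC ALBSF, 269 ± 42.8 in Ctrl PMBSF and 313 ± 36.1 in Ctrl ALBSF (SD, n = 4 each). The median log2 difference was -0.22 in Ctrl PMBSF against Ctrl ALBSF (3 of 15 higher), -0.06 in embWPC ALBSF against Ctrl ALBSF (6 of 15 higher) and 0.19 in embWPC ALBSF against Ctrl PMBSF (12 of 15 higher). These small medians moved with single libraries. Without Ctrl PMBSF 2 the first was -0.35 and the last 0.36, with all 15 higher, and the last was 0.12 without Ctrl PMBSF 1 and 0.13 without Ctrl PMBSF 4 or embWPC ALBSF 4. That of embWPC ALBSF against Ctrl ALBSF ran from -0.14 without Ctrl ALBSF 4 to 0.06 without Ctrl ALBSF 1. Ctrl PMBSF had the lowest group mean for 11 of the 15. Within Ctrl PMBSF the libraries were split, since 7 genes had their lowest value of all 12 libraries in Ctrl PMBSF 1 and 6 their highest in Ctrl PMBSF 2.

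Cldn5, the claudin of brain endothelial tight junctions, was the highest of the set per length, at 37 CPM per kilobase of exon. It had 47.9, 52.7, 47.8 and 53.3 CPM in embWPC ALBSF, 46.3, 70.7, 45.1 and 42.9 CPM in Ctrl PMBSF and 59.2, 58, 55.3 and 49.1 CPM in Ctrl ALBSF. The groups overlapped, and Ctrl PMBSF 2 was the highest library. Cldn5 had log2 differences of -0.11 ± 0.13, -0.14 ± 0.13 and -0.02 ± 0.13 (SE) in the 3 comparisons. Below it per length came the transporters of the barrier: Mfsd2a (a lysophospholipid carrier) at 11.9, Slc2a1 (the glucose transporter GLUT1) at 8.46, Slc16a1 (a lactate and ketone body transporter) at 7.73 and Slco1c1 (a thyroid hormone transporter) at 5.98 CPM per kilobase. The adhesion protein Esam was at 8.49 CPM per kilobase. The growth factor receptors Flt1, Kdr, Tie1 and Tek were at 0.876 to 1.17 CPM per kilobase, and the vein and artery marker Vwf was lowest at 0.142.

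Slc2a1 had 41.9, 51, 40.3 and 47.7 CPM in embWPC ALBSF, 34.3, 44.3, 33.6 and 27.7 CPM in Ctrl PMBSF and 43.9, 37.7, 36.9 and 36.9 CPM in Ctrl ALBSF. Only Ctrl PMBSF 2 of its group reached the embWPC ALBSF range. The log2 difference was 0.22 ± 0.12 (SE, edgeR adjusted p 0.61) for embWPC ALBSF against Ctrl ALBSF and 0.37 ± 0.12 (SE, adjusted p 0.393) for embWPC ALBSF against Ctrl PMBSF. Slco1c1 had 40.1, 41.8, 44.5 and 55.5 CPM in embWPC ALBSF, 41, 43.6, 36.2 and 34.9 CPM in Ctrl PMBSF and 62.8, 39.1, 46.5 and 42.3 CPM in Ctrl ALBSF, with overlapping groups. Esam had 25.7, 28.3, 22 and 27.9 CPM in embWPC ALBSF, 19.7, 29.2, 23.5 and 20.7 CPM in Ctrl PMBSF and 35.7, 26.6, 26.4 and 24.5 CPM in Ctrl ALBSF, which overlapped as well. Flt1, a receptor of vascular endothelial growth factors, was the only endothelial gene whose embWPC ALBSF libraries all lay above all Ctrl PMBSF libraries, where 2.35% of all genes did so. It had 17.9, 17.7, 17 and 17.9 CPM in embWPC ALBSF, 11.6, 16.2, 15.7 and 13.9 CPM in Ctrl PMBSF and 14.5, 18.3, 17.1 and 14.7 CPM in Ctrl ALBSF. Its log2 difference between embWPC ALBSF and Ctrl PMBSF was 0.30 ± 0.11 (SE, edgeR adjusted p 0.452). In the 3 comparisons the log2 differences were 0.21 ± 0.34, 0.47 ± 0.34 and 0.26 ± 0.34 (SE) for Cdh5 (VE-cadherin), 0.01 ± 0.16, -0.05 ± 0.16 and -0.06 ± 0.16 for Egfl7 (a secreted endothelial protein), and -0.26 ± 0.23, -0.09 ± 0.23 and 0.16 ± 0.23 for Emcn (the sialomucin endomucin).

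Tek, the receptor of the angiopoietins, went the other way from most of the set. It had 4.97, 5.33, 6.19 and 5.32 CPM in embWPC ALBSF, 5.19, 7.79, 5.32 and 5.37 CPM in Ctrl PMBSF and 5.36, 4.64, 3.53 and 4.1 CPM in Ctrl ALBSF. Ctrl ALBSF 1 overlapped both other groups, and the other Ctrl ALBSF libraries were below them. The log2 difference was 0.42 ± 0.16 (SE) in Ctrl PMBSF against Ctrl ALBSF and 0.31 ± 0.16 (SE) in embWPC ALBSF against Ctrl ALBSF, with edgeR adjusted p of 0.295 and 0.597. Pecam1, an adhesion protein of endothelial junctions, had 5.3, 5.17, 5.82 and 6.16 CPM in embWPC ALBSF, 3.11, 6.01, 3.69 and 3.86 CPM in Ctrl PMBSF and 5.92, 5.84, 5.95 and 4.5 CPM in Ctrl ALBSF. Only Ctrl PMBSF 2 of its group reached the level of embWPC ALBSF. Slc16a1 had 30.1, 30.8, 43.2 and 53.3 CPM in embWPC ALBSF, 32, 32.8, 47 and 31.7 CPM in Ctrl PMBSF and 52.9, 33.4, 62.7 and 40.7 CPM in Ctrl ALBSF, lower in Ctrl PMBSF in all 4 pairs of equal number. Its log2 difference was -0.40 ± 0.21 (SE, edgeR adjusted p 0.492), and with the control pairs as a block -0.39 ± 0.09 with an adjusted p of 0.0345.

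Signals that act on vessels were read from a list of 15 genes. In Ctrl PMBSF against Ctrl ALBSF, 1 of the 15 was called, where 1.62% of all genes were. It was Angpt2, the angiopoietin that endothelial cells and other sources release and that acts on Tek. Angpt2 had 35.6, 31.5, 28.6 and 26.5 CPM in Ctrl PMBSF and 15.6, 13.3, 12.5 and 9.49 CPM in Ctrl ALBSF, without overlap. It rose by 1.27 ± 0.14 on the log2 scale (SE, edgeR adjusted p 0.000365). Angpt2 had 19.2, 22.1, 17.6 and 19.6 CPM in embWPC ALBSF, between the control groups, with a log2 difference of 0.63 ± 0.14 from Ctrl ALBSF that did not pass (adjusted p 0.105). In both comparisons with embWPC ALBSF, 0 of the 15 were called. Of 30 further endothelial genes, 29 were tested and 0 called in each comparison, with medians of -0.17, -0.06 and 0.10. The members of both lists at an unadjusted p under 0.05 numbered 4 and 3 in Ctrl PMBSF against Ctrl ALBSF, 2 and 2 in embWPC ALBSF against Ctrl ALBSF, and 2 and 3 in embWPC ALBSF against Ctrl PMBSF. As shares of the genes tested these are 26.7% and 10.3%, 13.3% and 6.9%, and 13.3% and 10.3%, beside 11.8%, 9.22% and 9.47% of all genes in the 3 comparisons.

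The pericyte genes of the mural set had lower values in Ctrl PMBSF than in Ctrl ALBSF, without a call in the edgeR fit of 12 libraries by group. The median log2 difference of the 5 mural genes was -0.20 in Ctrl PMBSF against Ctrl ALBSF (1 of 5 higher), -0.01 in embWPC ALBSF against Ctrl ALBSF (2 of 5) and 0.34 in embWPC ALBSF against Ctrl PMBSF (4 of 5). The first was -0.54 without Ctrl PMBSF 2 (0 of 5 higher), -0.31 without Ctrl ALBSF 4, -0.11 without Ctrl PMBSF 4 and -0.06 without Ctrl ALBSF 1. The second ran from -0.11 without Ctrl ALBSF 4 to 0.10 without Ctrl ALBSF 2. The third was 0.14 without Ctrl PMBSF 4, 0.19 without Ctrl PMBSF 3 and 0.20 without embWPC ALBSF 3. Rgs5, a regulator of G protein signalling in pericytes, lies on chromosome 1 from 169483036 to 169524887 on the plus strand (GRCm39). It had 16.8, 20.5, 18 and 16.6 CPM in embWPC ALBSF, 12.2, 17.1, 13 and 11.1 CPM in Ctrl PMBSF and 16.6, 23.6, 18.2 and 14.1 CPM in Ctrl ALBSF. The Ctrl PMBSF value was below the Ctrl ALBSF value in all 4 pairs of equal number, although the ranges overlapped. The log2 difference was -0.44 ± 0.16 (SE) with an edgeR adjusted p of 0.234, and with the control pairs as a block it was -0.44 ± 0.07 with an adjusted p of 0.00593. The log2 difference of Rgs5 for embWPC ALBSF against Ctrl ALBSF was -0.01 ± 0.16 (SE, edgeR adjusted p 0.988).

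Abcc9 and Kcnj8 encode the subunits of the ATP-sensitive potassium channel of pericytes. Abcc9 had 3.09, 4.36, 3.44 and 4.35 CPM in embWPC ALBSF, 2.7, 3.07, 3.02 and 3.23 CPM in Ctrl PMBSF and 4.4, 4.54, 5.08 and 3.34 CPM in Ctrl ALBSF. It was the only one of the 46 genes whose Ctrl PMBSF libraries all lay below all Ctrl ALBSF libraries, where 3.62% of all genes did so. Its log2 difference was -0.53 ± 0.16 (SE, edgeR adjusted p 0.159). Kcnj8 had 10.4, 11.8, 8.44 and 11.5 CPM in embWPC ALBSF, 12.6, 11.4, 10.9 and 8.73 CPM in Ctrl PMBSF and 16.1, 11.1, 13.2 and 9.75 CPM in Ctrl ALBSF, with overlapping groups. Pdgfrb, the receptor that draws pericytes to vessels, had log2 differences of -0.08 ± 0.18, 0.07 ± 0.18 and 0.16 ± 0.18 (SE) in the 3 comparisons.

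Acta2, the actin of smooth muscle, did not follow the pericyte genes. It had 2.08, 1.62, 4.73 and 1.02 CPM in embWPC ALBSF, 0.999, 5.22, 0.28 and 0.44 CPM in Ctrl PMBSF and 1.59, 2, 0.865 and 0.264 CPM in Ctrl ALBSF. The highest values were in Ctrl PMBSF 2 and embWPC ALBSF 3, and the 3 groups overlapped. The smooth muscle genes Tagln and Myh11 were at 0 to 0.399 CPM and did not pass the filter. Vwf also varied widely, at 3.25, 2.36, 3.08 and 3.56 CPM in embWPC ALBSF, 1.4, 4.54, 0.532 and 1.1 CPM in Ctrl PMBSF and 2.88, 4.11, 0.796 and 0.86 CPM in Ctrl ALBSF. Of 13 further mural genes, 8 were tested and 0 called in each comparison. At an unadjusted p under 0.05 they numbered 2, 0 and 2 in the 3 comparisons. These are 25%, 0% and 25% of those tested, beside 11.8%, 9.22% and 9.47% of all genes. Cspg4 and Art3 were the 2 in both cases, and Cspg4 is also among the oligodendrocyte lineage markers listed below.

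**Figure D4:**
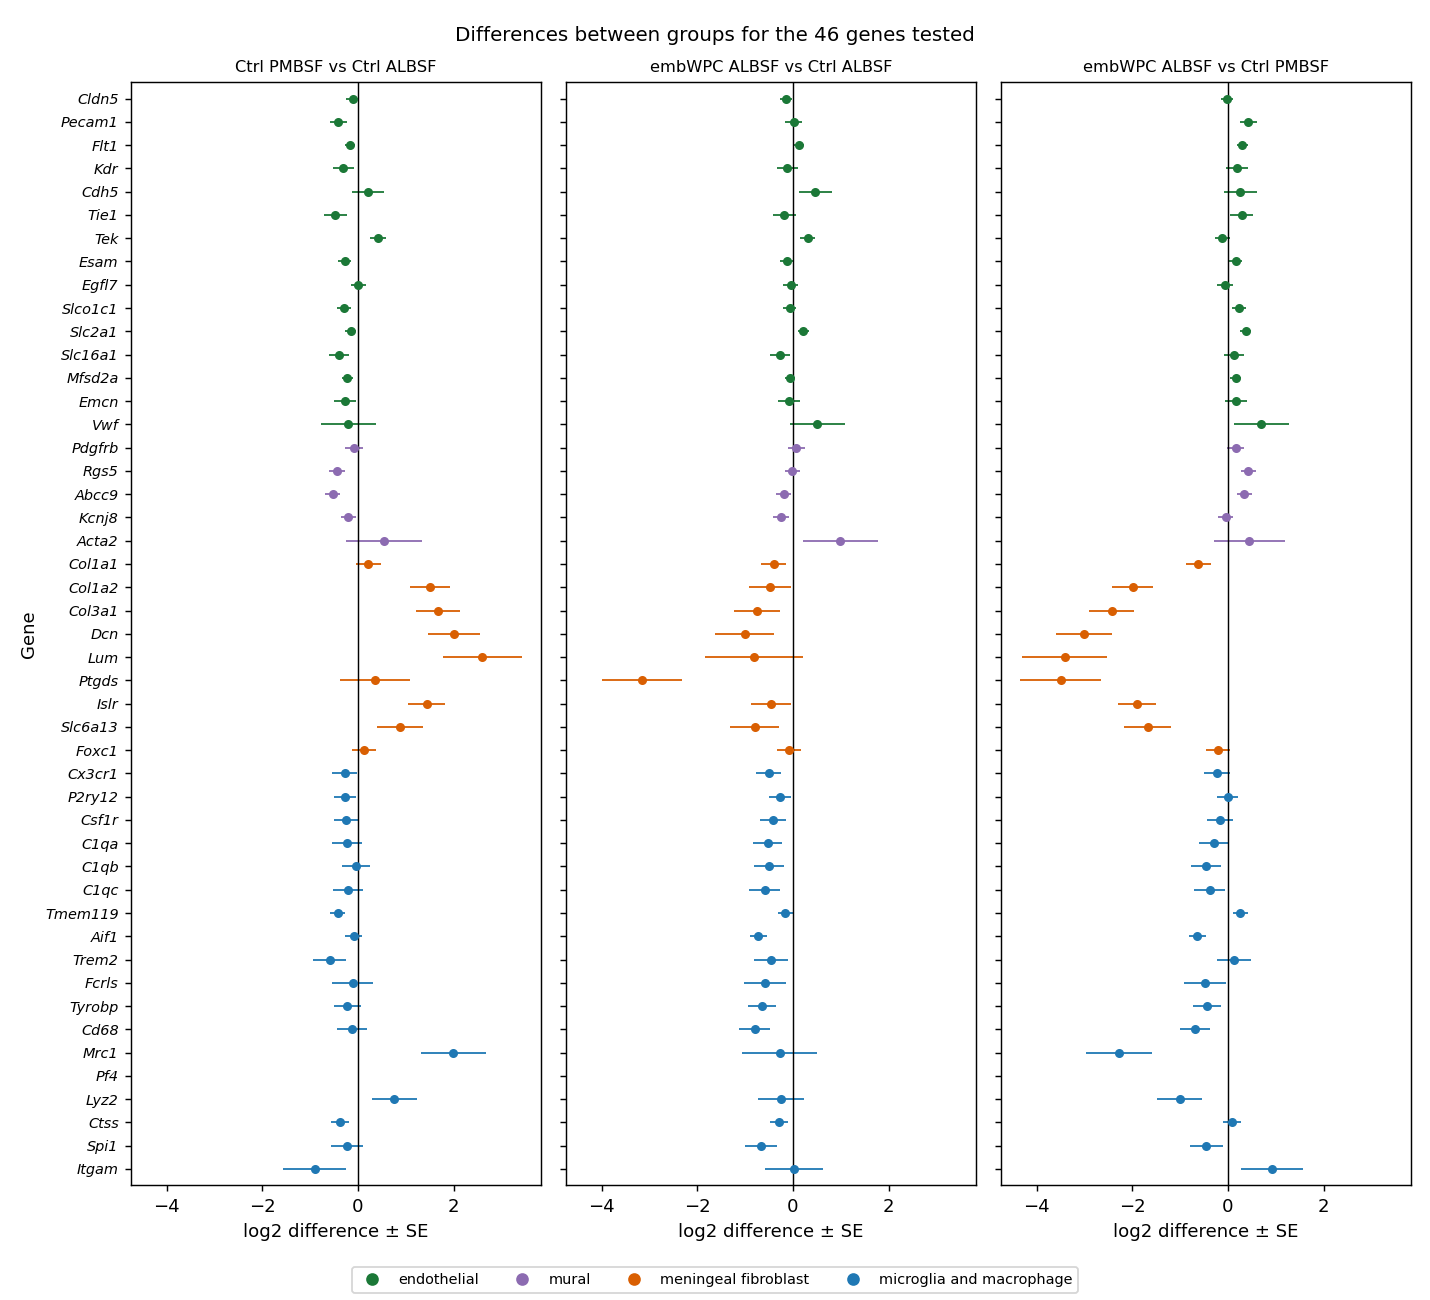
Log2 difference with its standard error (x axis) for the 46 genes tested (y axis) in the 3 comparisons, from the edgeR fit of 12 libraries; colour gives the set, and Pf4 has no point. Most meningeal fibroblast genes lie right of 0 in Ctrl PMBSF against Ctrl ALBSF (median 1.44) and left of 0 in both panels of embWPC ALBSF (medians -0.76 and -1.99).

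The microglia and macrophage genes had their lowest group mean in embWPC ALBSF for 14 of 18, and their highest in Ctrl ALBSF for 15 of 18. The median log2 difference was -0.23 in Ctrl PMBSF against Ctrl ALBSF (2 of 17 tested higher, Mrc1 and Lyz2) and -0.50 in embWPC ALBSF against Ctrl ALBSF (1 of 17 higher, Itgam). The median was -0.38 in embWPC ALBSF against Ctrl PMBSF (4 of 17 higher), but 0.12 without Ctrl PMBSF 1 (12 of 17 higher). The median in Ctrl PMBSF against Ctrl ALBSF was -0.59 without Ctrl PMBSF 1 and -0.38 without Ctrl ALBSF 4, and -0.05, -0.07 and -0.10 without Ctrl PMBSF 4, Ctrl PMBSF 3 and Ctrl ALBSF 1. That in embWPC ALBSF against Ctrl ALBSF ran from -0.66 without Ctrl ALBSF 4 to -0.32 without Ctrl ALBSF 1. Of the 18 genes, 11 had their highest value in Ctrl PMBSF 1. The remaining Ctrl PMBSF libraries held the lowest value of 11 of the 18.

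P2ry12, a purinergic receptor of resting microglia, was the highest of the set per length at 4.41 CPM per kilobase of exon. It had 10.3, 12.4, 13.7 and 16.5 CPM in embWPC ALBSF, 21, 9.79, 11.3 and 11 CPM in Ctrl PMBSF and 18, 14.9, 18.5 and 12.6 CPM in Ctrl ALBSF. Ctrl PMBSF 1 was the highest of the 12 libraries, and the other Ctrl PMBSF libraries were below every Ctrl ALBSF library. Ctrl PMBSF 2 was the lowest of the 12, below the embWPC ALBSF range, and Ctrl PMBSF 3 and Ctrl PMBSF 4 lay in the lower part of that range. The log2 differences were -0.27 ± 0.22, -0.27 ± 0.22 and -0.00 ± 0.22 (SE) in the 3 comparisons. C1qc, a chain of complement C1q, had 7.25, 9.88, 6.32 and 7.78 CPM in embWPC ALBSF, 18.9, 9.88, 5.37 and 6.56 CPM in Ctrl PMBSF and 14.7, 14.6, 9.51 and 8.36 CPM in Ctrl ALBSF. C1qa and C1qb, the other chains, were also highest in Ctrl PMBSF 1, at 12.4 and 19.9 CPM. Cx3cr1, the fractalkine receptor of microglia, reached 9.72 CPM there, against 4.09 to 4.57 CPM in the other Ctrl PMBSF libraries. Fcrls, an Fc receptor-like gene of mouse microglia, reached 15.2 CPM, against 3.8 to 4.59 CPM in the other Ctrl PMBSF libraries.

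Aif1 encodes IBA1, a calcium-binding protein of microglia, and lies on chromosome 17 from 35387384 to 35395053 on the minus strand (GRCm39). It had 3.99, 3.13, 3.44 and 2.49 CPM in embWPC ALBSF, 6.94, 4.11, 4.56 and 4.58 CPM in Ctrl PMBSF and 4.86, 5.45, 5.43 and 5.72 CPM in Ctrl ALBSF. All 4 embWPC ALBSF libraries were below all 8 control libraries. The log2 difference was -0.72 ± 0.18 (SE) from Ctrl ALBSF, with an edgeR adjusted p of 0.166, a DESeq2 adjusted p of 0.0262 and a range of 0.0262 to 0.403 over the 15 alternatives. From Ctrl PMBSF it was -0.64 ± 0.18 (SE, edgeR adjusted p 0.328). Cd68, a lysosomal protein of macrophages, had 2.35, 2.49, 1.46 and 2.49 CPM in embWPC ALBSF, 5.7, 3.56, 2.55 and 2.32 CPM in Ctrl PMBSF and 4.93, 4.47, 4.05 and 1.92 CPM in Ctrl ALBSF. Ctrl ALBSF 4 overlapped embWPC ALBSF, and the log2 difference from Ctrl ALBSF was -0.80 ± 0.32 (SE, edgeR adjusted p 0.471). Tyrobp, the signalling adaptor of Trem2, differed by -0.65 ± 0.29 (SE, edgeR adjusted p 0.528) in the same comparison.

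Tmem119, a membrane protein of microglia, had 3.82, 4.04, 4.73 and 5.45 CPM in embWPC ALBSF, 4.19, 4.08, 3.58 and 3.23 CPM in Ctrl PMBSF and 6.38, 4.64, 5.05 and 4.13 CPM in Ctrl ALBSF. It was lower in Ctrl PMBSF than in Ctrl ALBSF in all 4 pairs of equal number, with a log2 difference of -0.42 ± 0.16 (SE, edgeR adjusted p 0.297). Ctss, the lysosomal protease cathepsin S, had 9.43, 9.3, 7.68 and 9.14 CPM in embWPC ALBSF, 12.1, 7.58, 7.47 and 6.47 CPM in Ctrl PMBSF and 14.3, 11.1, 9.48 and 8.66 CPM in Ctrl ALBSF. It too was lower in Ctrl PMBSF in all 4 pairs, with a log2 difference of -0.37 ± 0.19 (SE, edgeR adjusted p 0.476), and of -0.38 ± 0.09 with an adjusted p of 0.0409 with the control pairs as a block. Trem2, a lipid-sensing receptor, had 2.68, 2.94, 1.52 and 2.31 CPM in embWPC ALBSF, 3.94, 1.26, 1.74 and 1.63 CPM in Ctrl PMBSF and 3.04, 4.4, 3.8 and 1.79 CPM in Ctrl ALBSF, with overlapping groups and a log2 difference of -0.59 ± 0.35 (SE, edgeR adjusted p 0.558) between Ctrl PMBSF and Ctrl ALBSF. Csf1r, the receptor on which microglia depend, differed by -0.24 ± 0.26, -0.42 ± 0.27 and -0.17 ± 0.27 (SE) in the 3 comparisons, and Spi1, which encodes the factor PU.1, by -0.23 ± 0.34, -0.67 ± 0.34 and -0.45 ± 0.34. Itgam had 1 to 15 counts in a library, too few to order the groups.

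The promoters of C1qc, Ctss and Pf4 are shown because they are the microglia and macrophage genes whose window holds GAGGAAGT, the sequence bound by PU.1. They are RefSeq windows of GRCm38.p6, as for the collagens, with capitals on ACTTCCTC, which is GAGGAAGT on the other strand, and on the CCAAT and TATAAA motifs of either strand.
C1qc, chr4:136892865-136893164, minus strand: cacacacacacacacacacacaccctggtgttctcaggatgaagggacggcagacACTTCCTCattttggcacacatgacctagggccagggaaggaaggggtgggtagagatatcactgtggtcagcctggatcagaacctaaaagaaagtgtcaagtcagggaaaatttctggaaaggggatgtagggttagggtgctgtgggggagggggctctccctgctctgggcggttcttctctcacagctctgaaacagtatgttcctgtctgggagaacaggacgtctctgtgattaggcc
Ctss, chr3:95526536-95526835, plus strand: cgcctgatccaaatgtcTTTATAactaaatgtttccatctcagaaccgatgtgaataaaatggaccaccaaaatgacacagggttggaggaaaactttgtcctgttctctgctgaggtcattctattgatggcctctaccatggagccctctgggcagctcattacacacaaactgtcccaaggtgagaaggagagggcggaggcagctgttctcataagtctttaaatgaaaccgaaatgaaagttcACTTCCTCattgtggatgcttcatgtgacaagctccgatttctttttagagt
Pf4, chr5:90772185-90772484, plus strand: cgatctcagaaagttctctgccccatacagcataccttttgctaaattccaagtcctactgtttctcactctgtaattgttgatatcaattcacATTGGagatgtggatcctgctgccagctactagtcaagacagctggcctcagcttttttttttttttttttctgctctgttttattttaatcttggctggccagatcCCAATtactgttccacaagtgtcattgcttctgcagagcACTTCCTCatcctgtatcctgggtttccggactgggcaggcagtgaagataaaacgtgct
On both strands, 3.2% of the 32851 windows hold GAGGAAGT. Of the 47 genes 34 had a window in the table, and GAGGAAGT was in 3 of 13 microglia and macrophage genes, 0 of 11 endothelial, 0 of 4 mural and 0 of 6 meningeal fibroblast genes. The shorter AGGAAGT, which lies within GAGGAAGT and is shared by ETS factors, was in 8 of 13 microglia and macrophage genes and 3 of 11 endothelial genes, where 9.35% of all windows hold it. Each of the 3 genes was highest in another library: C1qc in Ctrl PMBSF 1, Ctss in Ctrl ALBSF 1 and Pf4 in Ctrl PMBSF 2.

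Of 22 further microglial genes, 21 were tested and 0 called in each comparison, with medians of -0.19, -0.31 and -0.04. Of 10 genes of activated microglia, 7 were tested and 0 called. Of 5 ligands of microglia and chemokines, 4 were tested and 0 called, with Csf1, a ligand of Csf1r, at a log2 difference of -0.52 ± 0.22 (SE, edgeR adjusted p 0.33) in Ctrl PMBSF against Ctrl ALBSF. The genes of these 3 lists at an unadjusted p under 0.05 numbered 1, 2 and 1 in Ctrl PMBSF against Ctrl ALBSF, 0, 2 and 0 in embWPC ALBSF against Ctrl ALBSF, and 1, 1 and 0 in embWPC ALBSF against Ctrl PMBSF. As shares of those tested these are 4.76%, 28.6% and 25%, then 0%, 28.6% and 0%, then 4.76%, 14.3% and 0%. The shares of all genes were 11.8%, 9.22% and 9.47% in the 3 comparisons.

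Among 32 further meningeal and matrix genes, 29 were tested and 1 was called, in Ctrl PMBSF against Ctrl ALBSF, where 1.62% of all genes were. It was Zic1, a zinc finger factor of meninges and of some neurons, which rose by 0.50 ± 0.11 on the log2 scale (SE, edgeR adjusted p 0.0403). Zic1 was highest in Ctrl PMBSF 1, the library with the lowest meningeal fibroblast level of its group, whereas 17 of the 32 genes were highest in Ctrl PMBSF 2. The medians of this list were 0.50, -0.18 and -0.48 in the 3 comparisons. Ogn, a proteoglycan of the decorin family, was at 0.168, 0.226, 0.165 and 0.472 CPM in embWPC ALBSF and 0.621, 1.81, 1.37 and 1.38 CPM in Ctrl PMBSF, without overlap. The log2 difference of Ogn was -2.27 ± 0.41 (SE, edgeR adjusted p 0.181). Of this list, 13, 4 and 12 genes had an unadjusted p under 0.05 in the 3 comparisons, or 44.8%, 13.8% and 41.4% of those tested, beside 11.8%, 9.22% and 9.47% of all genes.

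Whether the sets varied together was described by the deviation of each library from its group mean. Over the 12 libraries the endothelial and mural sets went together, with a Pearson r of 0.83 and a Spearman rho of 0.80, and r was 0.66 without the 2 libraries farthest from the median of the endothelial set. Mural and microglia and macrophage sets gave r of 0.67 and rho of 0.70, and r of 0.91 without Ctrl PMBSF 1. Endothelial and microglia and macrophage sets gave r of 0.43 and rho of 0.60, and r of 0.95 without Ctrl PMBSF 1. In Ctrl PMBSF 2 the microglia and macrophage set deviated by 0.2, with Pf4, Mrc1 and Lyz2 at their highest and P2ry12 and Trem2 at their lowest of all libraries. Every r with this set includes Pf4, Mrc1 and Lyz2, and r without them was not computed. The libraries share the scaling to a common total, and 12 libraries in 3 groups leave few independent deviations, so these values are descriptions without a test. Removing the mean of each library number as well as of each group gave r of 0.83 for endothelial and mural, 0.63 for mural and microglia and macrophage, and 0.32 (rho 0.36) for endothelial and microglia and macrophage sets. The mean of a number was taken over all 3 groups, although the embWPC ALBSF libraries share only a number with the controls.

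The meningeal fibroblast set had no stable relation to the others. Its r with the endothelial set was 0.57 (rho 0.26) and -0.16 without Ctrl PMBSF 2, so that this relation rests on that library. With the mural set r was 0.38 (rho 0.36) and -0.34 without Ctrl PMBSF 2. With the microglia and macrophage set r was -0.35 (rho -0.23), 0.38 without Ctrl PMBSF 1 and -0.83 without Ctrl PMBSF 2. With the mean of each library number also removed, r was 0.39 with the endothelial, 0.13 with the mural and -0.61 with the microglia and macrophage set. Both libraries are of the same group and lie at opposite ends: Ctrl PMBSF 1 had the highest microglial level of its group and the lowest meningeal level, and Ctrl PMBSF 2 the highest meningeal level.

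**Figure D5:**
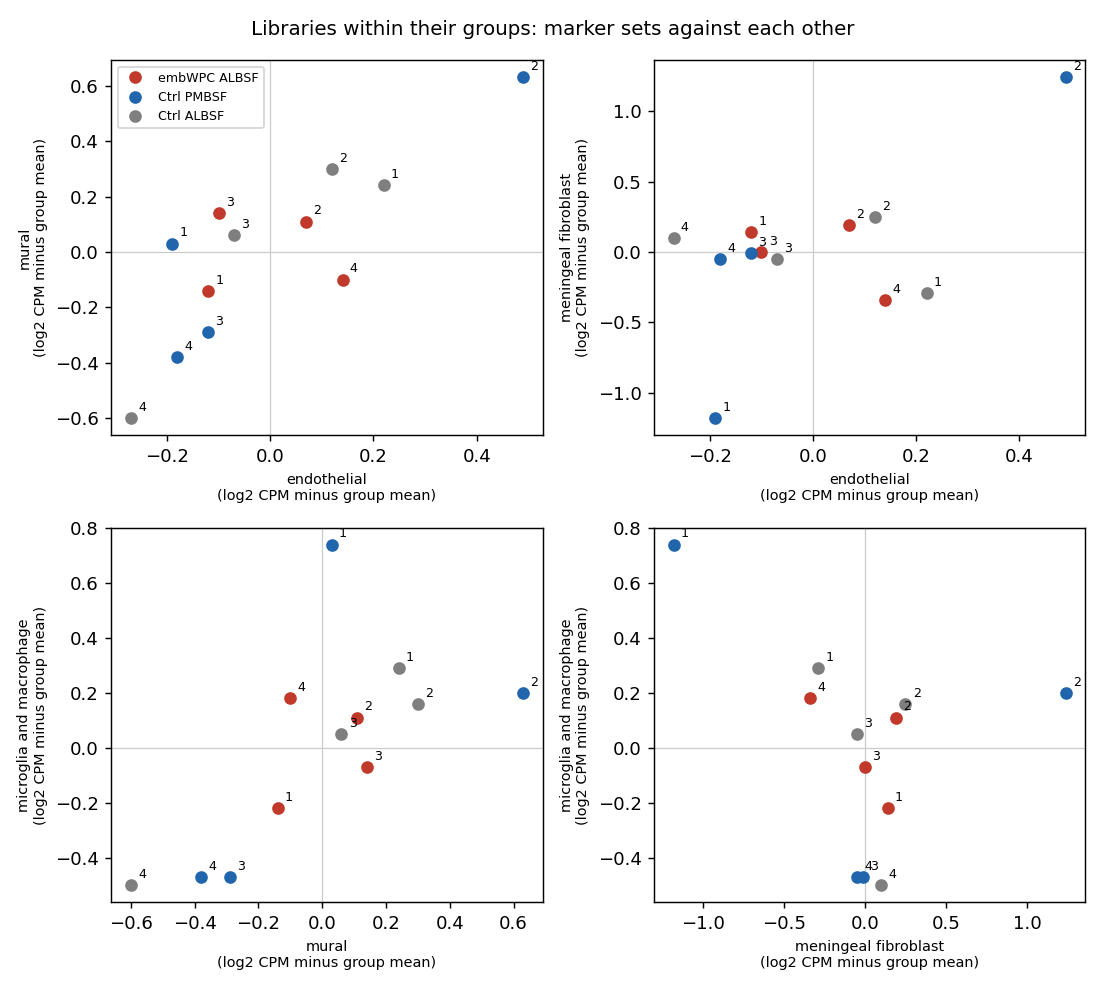
Each point is a library, placed by the deviation of 2 marker sets from the mean of its group (both axes in log2 CPM); colour is the group and the number is the library. Endothelial and mural sets went together (r of 0.83), whereas in the panel of meningeal fibroblast against microglia and macrophage genes Ctrl PMBSF 1 and Ctrl PMBSF 2 lie far apart.

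Single genes did not always go with their own set. Over pairs of genes, the median r of deviations was 0.58 within the endothelial, 0.40 within the mural, 0.73 within the meningeal fibroblast and 0.65 within the microglia and macrophage set, against -0.00 over all pairs of genes tested, whose middle 50% ran from -0.27 to 0.28. Between meningeal fibroblast and microglia and macrophage genes it was -0.33. In the following, a gene was left out of the mean of its own set, while the other sets were whole. Slc16a1 had r of -0.06 with the other endothelial genes, Ptgds 0.09 with the other meningeal fibroblast genes and Aif1 0.16 with the other microglia and macrophage genes. Foxc1 had r of 0.93 with the endothelial set and 0.61 with the other meningeal fibroblast genes. Pf4 had r of 0.85 with the endothelial set and 0.26 with the other microglia and macrophage genes, and Mrc1 0.71 and 0.43. Lyz2 went with its own set, at r of 0.80, with 0.62 for the endothelial and 0.05 for the meningeal fibroblast set. Pf4 and Mrc1 have few counts outside Ctrl PMBSF 2: Pf4 had 140 there and 0 to 15 elsewhere, and Mrc1 80 and 1 to 28. Ctrl PMBSF 2 also had the largest endothelial deviation, 0.49, and r without it was not computed for single genes.

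Library totals ran from 31712820 to 33702453 counts in embWPC ALBSF, 31921767 to 34512840 in Ctrl PMBSF and 28457046 to 31850727 in Ctrl ALBSF. Genes of the mitochondrial genome took 1.72% of the counts in Ctrl PMBSF 1, the lowest of the 12 libraries, and 3.45% in Ctrl PMBSF 2, the joint highest. Thalamic relay neuron markers also differed between the control groups. Tcf7l2 and Foxp2 fell and Rora rose in Ctrl PMBSF against Ctrl ALBSF, 3 called of 7 tested, where 1.62% of all genes were. Red blood cell markers had a summed level of 355 to 850 CPM in embWPC ALBSF, 744 to 1047 CPM in Ctrl PMBSF and 847 to 1332 CPM in Ctrl ALBSF. Of those markers 6 of 7 were tested, all with a lower value in embWPC ALBSF than in Ctrl ALBSF and 0 called, 4 of them at an unadjusted p under 0.05, where 9.22% of all genes were. Of 7 oligodendrocyte lineage markers, Sox10 fell in Ctrl PMBSF against Ctrl ALBSF (log2 difference -0.67 ± 0.13, SE, edgeR adjusted p 0.0189). There 5 of the 7 had an unadjusted p under 0.05, all with lower values, and 4 had lower values without overlap, beside 11.8% and 3.62% of all genes. For embWPC ALBSF against Ctrl PMBSF, 4 of the 7 had an unadjusted p under 0.05, all with higher values, beside 9.47% of all genes. Prethalamic GABA neuron markers had a summed level of 7.72 to 24.1 CPM in embWPC ALBSF, 9.92 to 31.2 CPM in Ctrl PMBSF and 4.93 to 43.4 CPM in Ctrl ALBSF. All 6 of those tested had lower values in embWPC ALBSF than in either control group, with medians of -0.86 against Ctrl ALBSF and -0.68 against Ctrl PMBSF. Of the 6, 0 were called and 1 was at an unadjusted p under 0.05 in each comparison, or 16.7%, beside 9.22% and 9.47% of all genes. The part of these in the values of the vascular, meningeal and microglial genes was not tested.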

How the data were processed

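Counts per gene came from bulk poly-A RNA of newborn mouse thalamus, read as 150-base pairs, in 12 libraries of 5 pooled brains each. Per the series' design text and the submitters' processing notes, the authors aligned reads with STAR 2.7.9a and used featureCounts (Subread 2.0.1) with the gene models of Ensembl release 104; the strand setting is not given in the sources used here. The deposited counts are whole reads per gene, not normalized; the authors' own DESeq2 results were not used. Library totals set the precision of low genes: 3 counts were 0.0786 to 0.105 CPM. CPM here were computed from the counts with TMM scaling.

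Genes that passed edgeR's filterByExpr (17501 of 55359) were fitted with the quasi-likelihood test on all 12 libraries by group (edgeR 4.0.16, R 4.3.3), with Benjamini-Hochberg adjustment over all genes tested. The SE of an edgeR log2 difference was computed from the test, as its absolute value divided by the square root of the F statistic. Alternatives were DESeq2 1.42.0, limma 3.58.1 (voom with quality weights), other scalings, no filter, a prior count of 0.5, a replicate block and leaving out each library. The script was tested on simulated counts. Lists and the marker genes were chosen with earlier results of these data known. Genes given library by library are those with the smallest unadjusted p or highest CPM of their set, by the same rule in each set, plus some whose values the text compares with them, chosen after their values were seen.

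The labels number the libraries of each group 1 to 4. Libraries of equal number from the control groups deviated together from their group means, with correlations over genes of 0.39, 0.198, 0.325 and 0.396, so the numbers were used to pair the controls. Between embWPC ALBSF and the controls they lay between -0.147 and 0.051, and no pairing was used in the main fit. The replicate-block alternatives with embWPC ALBSF and the removal of number means did use its numbers, although they showed no such correlation. Symbols and exon lengths came from GENCODE mouse release 39, which held 54749 of the 55359 gene identifiers. Promoter windows are RefSeq sequence, found for 34 of the 47 genes.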

Additional observations from a re-analysis of the deposited data

Results flagged for a closer look

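Of 153 groups of 4 libraries looked at, 22 held a library far from the others by Dixon's test. Chance gives about 1 in 20 for a single group of normally spread values. The genes share libraries and vary together, and the set means are made of the same genes, so the 22 cannot be set against that share. The part of any cause in these values was not tested.

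In Ctrl PMBSF 2 the value was far above the other Ctrl PMBSF libraries for Cldn5 (70.7 CPM, others 42.9 to 46.3), Tek (7.79, others 5.19 to 5.37), Emcn (4.36, others 2.24 to 2.48) and Acta2 (5.22, others 0.28 to 0.999). The same held for Slc6a13 (13.5 CPM, others 2.32 to 4.2), Foxc1 (4.85, others 2.1 to 2.45), Pf4 (4.3, others 0.252 to 0.405) and the mean log2 CPM of the endothelial set, at 3.81.

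In Ctrl PMBSF 1 it was far above for Cx3cr1 (9.72 CPM, others 4.09 to 4.57), P2ry12 (21, others 9.79 to 11.3), Aif1 (6.94, others 4.11 to 4.58), Fcrls (15.2, others 3.8 to 4.59) and Tyrobp (5.13, others 2.16 to 2.51). Slc16a1 was high in Ctrl PMBSF 3 (47 CPM, others 31.7 to 32.8).

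In embWPC ALBSF 3, Ptgds (1.79 CPM, others 3.93 to 4.36), Cd68 (1.46, others 2.35 to 2.49) and Ctss (7.68, others 9.14 to 9.43) were low and Islr was high (0.827, others 0.629 to 0.646). Islr had only 19, 20, 25 and 24 counts in embWPC ALBSF libraries 1 to 4, so its flag rests on few counts. C1qb was high in embWPC ALBSF 2 (9.17 CPM, others 7.02 to 7.08). In Ctrl ALBSF, Ptgds was high in library 2 (102 CPM, others 5.46 to 10.2), Slc2a1 high in library 1 (43.9, others 36.9 to 37.7) and Pecam1 low in library 4 (4.5, others 5.84 to 5.95).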

How the results depend on the processing

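Other size factors (RLE), library totals without TMM, a fit of only the 2 groups compared and a prior count of 0.5 moved none of the 18 values recomputed under each. All genes called in Ctrl PMBSF against Ctrl ALBSF numbered 284, against 527 with DESeq2, 461 with voom, 857 with the replicate block on the 8 control libraries and 127 to 249 leaving out 1 library. In embWPC ALBSF against Ctrl ALBSF they numbered 11, against 121 with no filter, 181 with DESeq2, 78 with voom, 23 with the replicate block on 12 libraries, 1 with it on 8 and 1 to 22 leaving out 1. In embWPC ALBSF against Ctrl PMBSF it was 1, against 72, 74, 1, 3 and 0 in the same order and 1 to 3 leaving out 1. Of the 46 marker genes tested 0 were called. With no filter Pf4 was tested as well, and is among the genes called in both comparisons with Ctrl PMBSF. In Ctrl PMBSF against Ctrl ALBSF the count was 6 of 47 with no filter, 1 with DESeq2, 1 with the replicate block on 12 libraries, 5 on 8 and 0 to 4 leaving out 1. It was 1 with no filter and 2 with DESeq2 in embWPC ALBSF against Ctrl ALBSF, and 8 of 47, 5 and 0 to 2 leaving out 1 in embWPC ALBSF against Ctrl PMBSF. For background, DESeq2 called 3.01%, 1.1% and 0.423% of all genes in the 3 comparisons, and the block on 8 libraries 5.04% in the first. Shares for no filter, for the block on 12 libraries and for leaving out 1 are not given, so those counts lack a background. The cause was not tested. The embWPC ALBSF libraries share only a number with the controls.

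Leaving out 1 library, the median of the meningeal fibroblast genes ran from 0.74 to 1.67 in Ctrl PMBSF against Ctrl ALBSF and from -2.27 to -1.24 in embWPC ALBSF against Ctrl PMBSF, and that of the microglia and macrophage genes from -0.57 to 0.12 in the last. Medians in place of means of log2 CPM gave 2.91 for mural, 1.04 for meningeal fibroblast and 1.88 for microglia and macrophage genes in embWPC ALBSF, and 1.56 and 2.35 for the last 2 in Ctrl ALBSF. Leaving out 1 library, r of the deviations ran from 0.66 to 0.88 for endothelial and mural, -0.16 to 0.69 for endothelial and meningeal fibroblast, 0.28 to 0.95 for endothelial and microglia and macrophage, -0.34 to 0.62 for mural and meningeal fibroblast, 0.55 to 0.91 for mural and microglia and macrophage, and -0.83 to 0.38 for meningeal fibroblast and microglia and macrophage genes. Low counts limit Pf4, Mrc1, Lum and Itgam, and Islr in embWPC ALBSF.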
